A study of Homo sapiens with 6 samples.

Results

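The transcripts of MYC, the 3 D cyclins and 6 inhibitors of cyclin-dependent kinases (CDKs) were examined in MO3.13 cells with and without exposure to Klotho. These 10 genes were chosen by name, and 9 of them had a probe set annotated with that gene alone, out of 14232 genes with such a probe set. CDKN2C, which encodes the INK4 inhibitor p18, had none and was not measured. MO3.13 is a human line that the submitters class as oligodendroglioma, and it is otherwise known as a fusion of human oligodendrocytes with a rhabdomyosarcoma line. The 3 control arrays came from cells described only as grown with 10% fetal bovine serum. The 3 treated arrays came from cells grown the same way and then given recombinant mouse Klotho at 0.4 µg/mL for 3.5 h in medium without serum. Medium lacking serum is named for the treated cells only, so Klotho and the absence of serum cannot be told apart in any difference below. Nothing in the labels states that replicates were independent cultures; p-values therefore reflect the scatter between these samples, and that scatter may be technical.

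Entry into the cell cycle is governed in G1 by the D cyclins, which bind CDK4 and CDK6 and start the phosphorylation of the retinoblastoma protein RB, releasing E2F transcription factors. Growth factors raise the D cyclins and MYC, a short-lived transcription factor that drives growth and division. The CIP/KIP proteins p21, p27 and p57 bind cyclin-CDK complexes broadly, while the INK4 proteins p15, p16, p18 and p19 bind CDK4 and CDK6 alone. Because serum and FOXO factors act on these genes, they are a common readout of growth factor signalling. Much of the control of p27, the D cyclins and MYC is exerted on the stability of the proteins, which arrays do not measure.

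Values are log2 signals as deposited, 1 per probe set and array, and a difference is the mean of the treated arrays minus that of the control arrays. Signals of different probe sets depend on the probes as well as on the transcript, so levels of different genes are not ranked here against each other. No detection calls were at hand, and a probe set was called dim where its mean over the 6 arrays was under 4.70, the lower quartile over all probe sets. None of the 9 measured genes was dim. The 6 arrays correlated at r = 0.985 to 0.991 over all probe sets. Control array 1 and treated array 3 lay at one end of the component of largest variance (33.8% of the total) and treated arrays 1 and 2 at the other, so results are also given without control array 1 and treated array 3.

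The labelled cell type was checked against 3 lists of markers. Of 12 oligodendrocyte markers 9 had a probe set of their own; the myelin gene MOG, at 4.58 in control cells, was the only dim one (1 of 9). MBP measured 5.26, MAG 5.32, OLIG2 5.40 and CNP, an early myelin enzyme, 8.83, each on probes of its own. The mean of that list ran from 5.80 to 5.90 on the control and from 5.78 to 6.00 on the treated arrays. Skeletal muscle markers (10 of 12 measured) averaged 8.61 to 8.68 on the control and 8.59 to 8.62 on the treated arrays. Among the muscle regulators, MYOD1 measured 9.72, MYOG 8.14 and MYF6 5.08 in control cells, and MYF5 was dim at 3.60. The muscle filament gene DES differed by -0.27 between groups that did not overlap (unadjusted p 0.0190, adjusted p = 0.998 in limma). It was the only 1 of the 10 measured muscle markers with such separation, against 7.89% of all genes. Astrocyte and neuron markers (6 of 8 measured) averaged 5.03 to 5.09 and 4.99 to 5.03. These levels come from different probes and are not set against each other, and whether they bear on the genes below was not tested.

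Treated and control arrays were compared to ask whether transcripts of the G1 regulators differ after Klotho. None of the 9 genes passed. All had an adjusted p of 0.998 in limma, whose adjustment ran over 22011 probe sets, of which 0 passed (0% called). For all 9 genes the 95% interval stayed inside a 1.5-fold change up or down, as it did for 91.7% of all 14232 genes. Treated means were above control for 4 of the 9 genes and below for 5, with a median difference of -0.03, and the median over all genes was also -0.03. CDKN1B, the gene of p27, was the only member with an unadjusted p under 0.05 in limma, a mark that 2.07% of all genes met (1.11% with the treated mean lower). The treated and control values of CDKN1B and CCND2 did not overlap, both with the treated arrays lower, and such separation was seen for 7.89% of all genes (5.30% with the treated arrays lower).

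**Figure D1:**
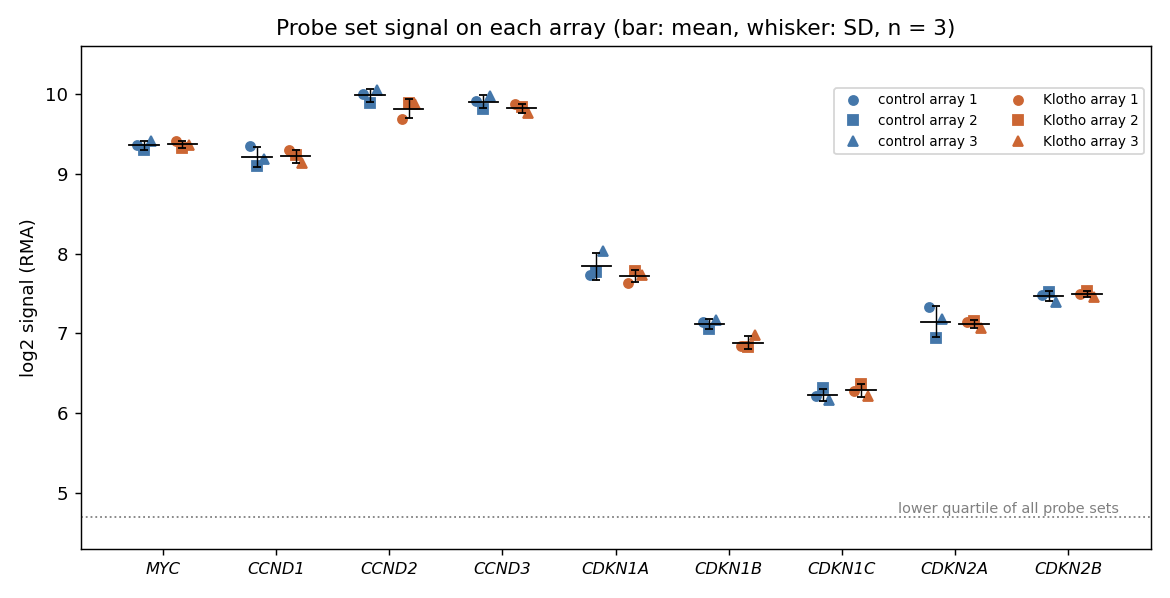
Log2 signal (vertical axis) of the 9 measured genes (horizontal axis) on each of the 3 control (blue) and 3 Klotho-treated (orange) arrays, with the group mean (bar) and SD (whisker, n = 3). The groups interleave for 7 genes; for CDKN1B the treated arrays read 6.83 to 6.98 and the control arrays 7.05 to 7.17, and for CCND2 the highest treated array (9.886) lay just under the lowest control array (9.891).

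MYC read 9.36, 9.29 and 9.41 on control arrays 1, 2 and 3 and 9.41, 9.32 and 9.36 on the treated arrays. The groups overlapped throughout, and the whole range over the 6 arrays was 0.12, narrower than that of all but 2.56% of genes (the median gene spanned 0.33). Its means were 9.36 ± 0.06 in control and 9.37 ± 0.04 in treated cells (SD, n = 3), a difference of 0.01 with a 95% interval of -0.17 to 0.19. On the linear scale this is a ratio of treated to control of 1.01 (95% interval 0.888 to 1.14). MYC transcript is short-lived and answers serum quickly, so a single time of 3.5 h shows only where the level stood then. The genes whose deviations over the 6 arrays lay nearest to those of MYC were PPP3CA, NPTN and EVX1 (root mean square difference 0.015, 0.017 and 0.019 on the log2 scale, among 11308 genes that were not dim); with so little variation in MYC itself, this likeness mostly describes flat profiles.

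The D cyclins are the regulatory subunits that carry growth factor signals to CDK4 and CDK6. CCND1, encoding cyclin D1, the form best known as a target of ERK signalling, read 9.34, 9.10 and 9.18 on the control arrays and 9.29, 9.23 and 9.13 on the treated arrays. Control array 1 was the highest of the 6 and control array 2 the lowest, so the treated values lay inside the control range. The difference was 0.01 (95% interval -0.22 to 0.24), or a ratio of 1.01 (0.858 to 1.18). A pair of further probe sets is annotated with both CCND1 and its neighbour LTO1 and was not used. They differed by 0.05 (95% interval -0.18 to 0.27) and -0.22 (95% interval -0.47 to 0.04), and their annotation does not assign them to either gene.

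CCND2, encoding cyclin D2, read 10.00, 9.89 and 10.05 on the control arrays and 9.68, 9.89 and 9.88 on the treated arrays. The groups were separated by the margin between control array 2 and treated array 2 only (9.891 and 9.886), and treated array 1 stood lowest. The difference was -0.17 (95% interval -0.39 to 0.06; adjusted p = 0.998 in limma), and it was -0.10 without treated array 1. CCND3, encoding cyclin D3, which is prominent in muscle and blood cells, read 9.91, 9.81 and 9.97 on the control arrays against 9.87, 9.83 and 9.76 on the treated arrays. These values overlapped, with a difference of -0.08 (95% interval -0.28 to 0.12). No D cyclin transcript therefore had an interval that reached a 1.5-fold change in either direction.

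**Figure D2:**
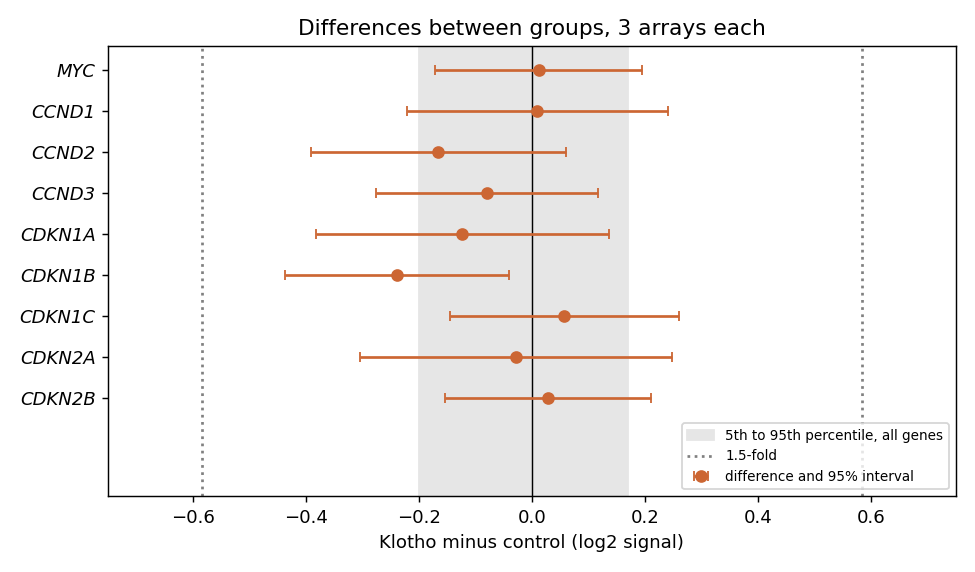
Difference between treated and control arrays (horizontal axis, log2 signal) for each measured gene, with its 95% interval from limma's moderated variance. The grey band runs from the 5th to the 95th percentile of all genes (-0.20 to 0.17) and dotted lines mark a 1.5-fold change; CDKN1B is the only gene whose interval leaves out 0 and whose difference (-0.24) lies outside the band, and all 9 intervals stay inside the dotted lines.

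The CIP/KIP genes encode the inhibitors that act on cyclin E and cyclin A complexes as well as on D cyclin complexes. CDKN1A, encoding p21, an inhibitor that arrests cells after damage and during differentiation, read 7.73, 7.76 and 8.03 on the control arrays and 7.63, 7.79 and 7.73 on the treated arrays. Only control array 3 stood above the rest. The difference was -0.12 (95% interval -0.38 to 0.14), and it was -0.03 without control array 3. CDKN1A spanned 0.40 over the 6 arrays, the widest range among the 9 genes. The genes nearest to its deviations were STK10, NFKBIE and MCM3 (root mean square difference 0.028, 0.038 and 0.043 on the log2 scale). Each also read highest on control array 3, which follows from their being picked for likeness to this profile.

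CDKN1B, encoding p27, the inhibitor that accumulates in resting cells and whose transcription FOXO factors raise, read 7.14, 7.05 and 7.17 on the control arrays and 6.84, 6.83 and 6.98 on the treated arrays. Every treated array lay below every control array. The means were 7.12 ± 0.06 and 6.88 ± 0.08 (SD, n = 3), a difference of -0.24 with a 95% interval of -0.44 to -0.04, or a ratio of 0.847 (0.738 to 0.972). Limma's unadjusted p was 0.0253, and the adjusted p of 0.998 did not pass. The difference lay between -0.29 and -0.17 under all 17 alternatives. Changing only the filter, the variance model, the block or the probe set choice refits the same CDKN1B values. In those alternatives the difference was -0.24 by construction. The unadjusted limma p was under 0.05 in 11 of the 17, several of them such refits, and up to 0.0887 in the others. The adjusted p ran from 0.593 to 1.00. The smallest size (-0.17) came with quantile normalization and the largest with array quality weights. With control array 1 and treated array 3 both left out, the difference was -0.28.

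CDKN1C, encoding p57, an imprinted gene that restrains division during muscle and brain development, read 6.21, 6.31 and 6.17 on the control arrays and 6.28, 6.37 and 6.21 on the treated arrays. The groups overlapped, and the difference was 0.06 (95% interval -0.15 to 0.26). The 3 CIP/KIP genes thus did not share a direction, and whether their differences differ from each other was not tested.

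In the RefSeq promoter table used here (GRCh38.p14), entries were found for 6 of the genes, and MYC was not looked up. The 150 bases before the start are shown for CDKN1B, the gene with the lowest p, and for its relative CDKN1A, so that the promoter regions of the 2 inhibitors can be set side by side. Capitals mark GC boxes (GGGCGG or its reverse complement CCGCCC), the motif named for the factor SP1. Both sequences lie on the plus strand, at chr12:12717218-12717367 and chr6:36678564-36678713.
CDKN1B: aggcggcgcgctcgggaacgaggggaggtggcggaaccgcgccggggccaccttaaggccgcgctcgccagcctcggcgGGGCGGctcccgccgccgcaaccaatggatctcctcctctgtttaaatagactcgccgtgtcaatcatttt
CDKN1A: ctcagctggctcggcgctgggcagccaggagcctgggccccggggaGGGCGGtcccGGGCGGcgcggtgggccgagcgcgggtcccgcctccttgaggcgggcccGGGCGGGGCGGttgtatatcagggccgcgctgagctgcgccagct
The CDKN1B stretch held 1 GC box and 67.3% G and C, and the CDKN1A stretch 4 GC boxes, of which the last 2 overlap by 1 base, and 79.3% G and C. The median over all 35116 such windows was 60.0% G and C, and 36.8% of them held a GC box on either strand. The E-box CACGTG, to which MYC binds with its partner MAX, and the FOXO motif GTAAACA, each searched on both strands, were in neither stretch; 4.57% and 1.73% of all windows held them. These are matches of letters in a short window and say nothing of binding.

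The INK4 genes encode inhibitors that are known for accumulating in senescent cells and for their frequent loss in tumours. CDKN2A read 7.33, 6.94 and 7.18 on the control arrays and 7.15, 7.15 and 7.07 on the treated arrays. The 3 treated values lay inside the span of the controls, whose SD of 0.20 was the largest in either group among the 9 genes, against 0.05 in treated cells. The difference was -0.03 (95% interval -0.30 to 0.25), and it turned positive, at 0.02 to 0.05, under each of the 3 other scalings of the arrays.

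CDKN2A has 2 promoters from which unrelated proteins are made, p14ARF and the inhibitor p16, which acts on CDK4 and CDK6, and 1 probe set stood for the gene. The 150 bases before each start are shown because the single value cannot assign signal to either. Both are on the minus strand, at chr9:21995325-21995474 and chr9:21974858-21975007 (RefSeq, GRCh38.p14), with GC boxes again in capitals.
p14ARF start: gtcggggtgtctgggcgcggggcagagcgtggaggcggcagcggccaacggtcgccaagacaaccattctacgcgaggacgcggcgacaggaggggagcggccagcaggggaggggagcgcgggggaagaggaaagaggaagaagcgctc
p16 start: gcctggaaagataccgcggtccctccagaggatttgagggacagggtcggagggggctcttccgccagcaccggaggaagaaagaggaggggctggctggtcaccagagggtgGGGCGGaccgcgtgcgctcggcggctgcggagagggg
The p14ARF stretch held 0 GC boxes and the p16 stretch 1, at 70.7% and 69.3% G and C.

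CDKN2B, encoding p15, the INK4 inhibitor that TGF-beta induces, is the neighbour of CDKN2A with 0 protein-coding genes between them. It read 7.48, 7.52 and 7.40 on the control arrays and 7.49, 7.53 and 7.46 on the treated arrays. The 6 values spanned 0.14, a range narrower than that of all but 4.13% of genes. The difference was 0.03 (95% interval -0.15 to 0.21), a ratio of 1.02 (0.899 to 1.16). The antisense transcript CDKN2B-AS1 overlaps CDKN2A and CDKN2B in RefSeq and had no probe set of its own. CDKN2A, CCND2 and CDKN1A also overlap CDKN2A-AS1, CCND2-AS1 and DINOL. Whether the labelled material kept strand is not given in the sources used here, so a share of these transcripts in the values was not tested.

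**Figure D3:**
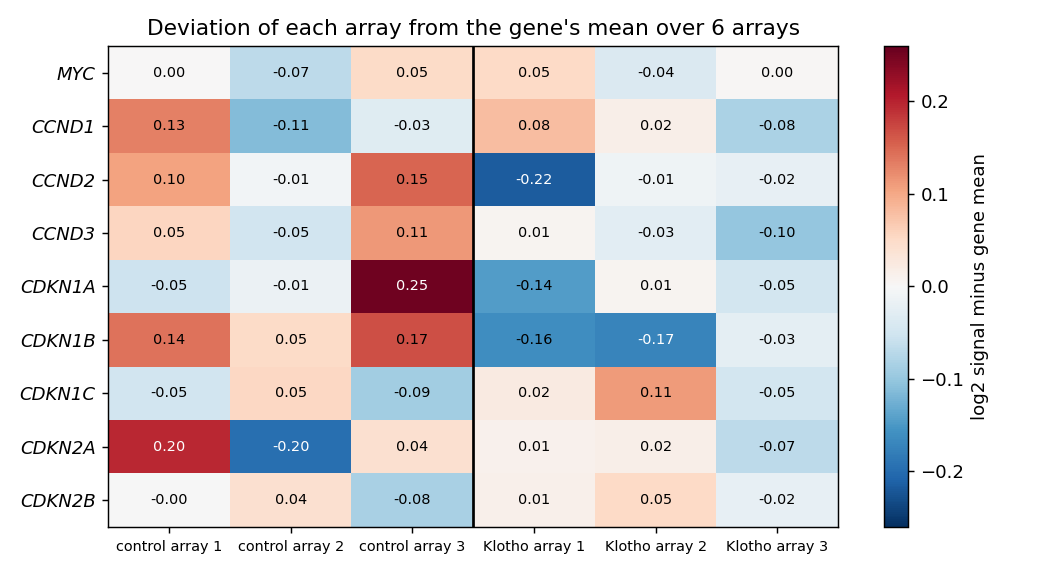
Log2 signal of each array minus the gene's mean over the 6 arrays (colour and printed value) for the 9 measured genes (rows) on the control and treated arrays (columns, divided by the black line). Only CDKN1B has all 3 control arrays above and all 3 treated arrays below its mean; CDKN2A has its extremes on control arrays 1 and 2, and CDKN1A is far above its mean on control array 3 alone.

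Across arrays the 9 genes did not vary as a block. Control array 3 read highest for 4 genes (CCND2, CCND3, CDKN1A and CDKN1B) and lowest for 2 (CDKN1C and CDKN2B). Control array 1, at the end of the component of largest variance, read highest for CCND1 and CDKN2A. Treated array 3 read highest for 0 genes and lowest for CCND3 alone. Without control array 1 and treated array 3 the differences were 0.02 for MYC, 0.12 for CCND1, -0.19 for CCND2, -0.04 for CCND3, -0.19 for CDKN1A, 0.09 for CDKN1C, 0.09 for CDKN2A and 0.05 for CDKN2B. Of these, only that of CDKN2A differed in sign from the value over all arrays. Leaving out 1 array at a time, the difference ran from -0.02 to 0.04 for MYC, -0.04 to 0.08 for CCND1, -0.12 to -0.04 for CCND3, 0.02 to 0.10 for CDKN1C, -0.13 to 0.06 for CDKN2A and -0.01 to 0.06 for CDKN2B. With both arrays left out none passed in limma, with adjusted p values of 0.960 or more over the 9 genes.

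**Figure D4:**
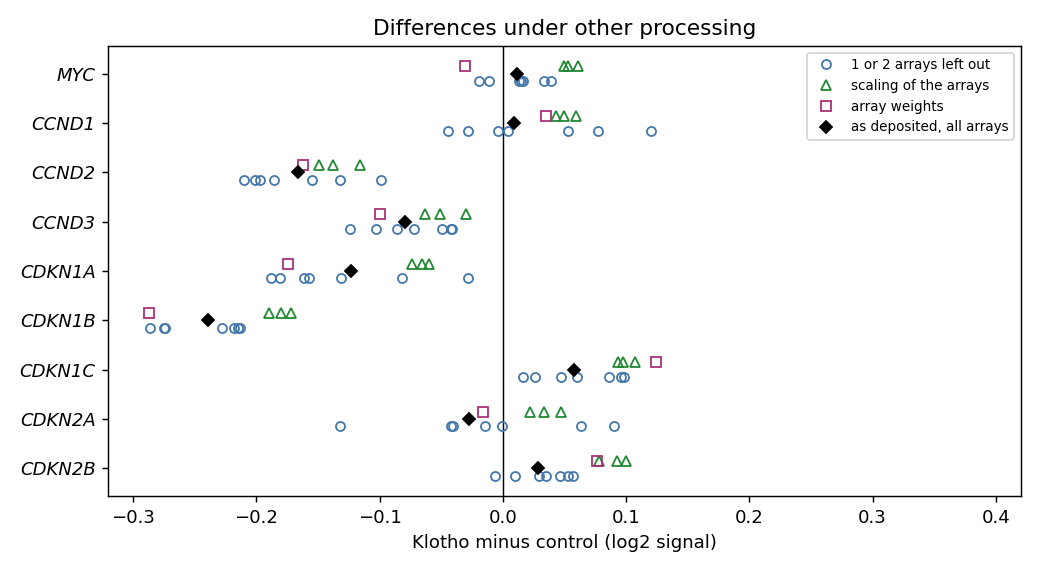
Difference between treated and control arrays (horizontal axis, log2 signal) of each measured gene as deposited (black) and with 1 or 2 arrays left out (blue circles), other scalings of the arrays (green triangles) or array quality weights (purple squares). CCND2, CCND3, CDKN1A, CDKN1B and CDKN1C stay on 1 side of 0 at every point, and MYC, CCND1, CDKN2A and CDKN2B cross it.

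Other genes of the pathway were grouped by function into 6 lists, of which 67 of 87 genes were measured. None passed in limma in either direction (0 of 67). Of the 67, 18 were higher and 49 lower in treated cells, with a median of -0.06, against 62.6% lower and a median of -0.03 over all genes. That split depended on the scaling of the arrays: 35 or 36 were lower under the 3 other scalings. The split over all 14232 genes moved as well, from 8911 lower as deposited to between 6082 and 7163 lower under those scalings. Unadjusted, 3 of the 67 had a limma p under 0.05 (MYCN, HSPD1 and NPM1), against 2.07% of all genes. Of these, NPM1 was read on a dim probe set. MYCN had an unadjusted limma p of 0.0717 when all its probe sets were averaged.

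Among the partners and relatives of MYC, 6 of 12 measured genes were higher and 6 lower (8 and 4 under the 3 other scalings). MYCN, the relative of MYC expressed in embryonic and neural tissue, read 7.72, 7.45 and 7.35 on the control arrays and 8.42, 8.03 and 7.70 on the treated arrays. Treated arrays 1 and 2 stood above all controls, and treated array 3 overlapped with control array 1. The difference was 0.54 (95% interval 0.07 to 1.01; unadjusted p 0.0301, adjusted p = 0.998 in limma), and 0.36 without treated array 1. The gene's second probe set, near the dim limit, measured 4.74 ± 0.04 in control and 4.83 ± 0.19 in treated cells (SD, n = 3), a difference of 0.08 (95% interval -0.19 to 0.35). MAX, the obligate partner of MYC, differed by -0.09 (95% interval -0.35 to 0.17), which was -0.0004 without control array 1. MLXIP differed by -0.13, and by -0.08 without treated array 1.

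Of the MYC target genes, 4 of 13 measured were higher and 9 lower, with a median of -0.06 (-0.04 to -0.01 under the 3 other scalings). HSPD1, a mitochondrial chaperonin, measured 7.53 ± 0.04 in control and 7.19 ± 0.09 in treated cells (SD, n = 3). Its groups did not overlap, and the difference of -0.34 (95% interval -0.53 to -0.15) had an unadjusted p of 0.00476 and an adjusted p of 0.998 in limma. NPM1, nucleophosmin, measured 3.38 ± 0.21 and 2.33 ± 0.08 (SD, n = 3) on a dim probe set, with groups that did not overlap. Its difference of -1.05 (95% interval -1.35 to -0.76) had an unadjusted p of 8.78e-05 and an adjusted p of 0.395 in limma, the smallest adjusted p among the genes. Of the other targets, LDHA, the lactate dehydrogenase subunit, differed by 0.01 (95% interval -0.19 to 0.20) and FBL, the nucleolar methyltransferase fibrillarin, by 0.00 (95% interval -0.28 to 0.29). POLR1B differed by -0.20 (95% interval -0.40 to 0.01) and CAD by -0.18 (95% interval -0.39 to 0.03), both with groups that did not overlap. Such separation held for 4 of the 13 targets, against 7.89% of all genes.

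On the list of G1 kinases and partners, 8 genes were measured: CDK6, CDK2, CCNH, CCNE1, CCNE2, CDC25A, CDKN2D and CDKN3. Of these, 1 was higher, the inhibitor gene CDKN2D, and 7 were lower (3 and 5 under the 3 other scalings). The median of the list was -0.06. CDK6 measured 11.06 ± 0.03 in control and 10.98 ± 0.06 in treated cells (SD, n = 3), a difference of -0.07 (95% interval -0.25 to 0.11), or -0.04 without treated array 1. CDK4 had no probe set of its own, so the kinase shared with CDK6 as D cyclin partner was not measured. CDK2, the partner of cyclins E and A, differed by -0.05 (0.04 without control array 1 and -0.13 without control array 2). CCNH, a subunit of the CDK-activating kinase, differed by -0.17 (95% interval -0.48 to 0.15), with -0.08 without treated array 1 and -0.27 without control array 2. CDKN2D, the gene of the fourth INK4 protein, p19, differed by 0.11 (95% interval -0.13 to 0.35), with 0.05 without control array 2 and 0.18 without control array 3.

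Downstream of those kinases, 2 of 11 measured RB and E2F genes were higher and 9 lower (4 or 5 higher under the 3 other scalings). RB1, the gene of the retinoblastoma protein, differed by -0.15 with a wide interval of -0.61 to 0.32, and the difference was -0.30 without control array 3 and -0.003 without control array 1. E2F1 measured 7.64 ± 0.04 and 7.63 ± 0.05 (SD, n = 3), a difference of 0.00 (95% interval -0.18 to 0.18). The repressor gene E2F7 differed by -0.26, with treated array 1 lowest, and by -0.09 without that array, and E2F4 differed by -0.10.

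Genes that act on the turnover of p27, the D cyclins and MYC, mostly ubiquitin ligase subunits but also the kinase GSK3B and the deubiquitinase USP28, were 3 higher and 12 lower of 15 measured (6 or 7 higher under the 3 other scalings). SKP2, which targets p27, measured 10.90 ± 0.08 and 10.92 ± 0.01 (SD, n = 3), a difference of 0.02 (95% interval -0.16 to 0.21), or 0.06 without control array 1 and -0.01 without control array 2. AMBRA1, which targets the D cyclins, differed by -0.21 (95% interval -0.42 to 0.00), and RNF123, which targets p27 in the cytoplasm, by -0.12. Neither gene's groups overlapped. Such separation held for 2 of the 15 genes, against 7.89% of all genes (5.30% with the treated arrays lower). Regulators of the INK4 locus were 2 higher and 6 lower of 8 measured (4 and 4 under the 3 other scalings), with ETS2 at -0.22 (95% interval -0.48 to 0.04) and ID1 at -0.14. ETS2 was the only 1 of these 8 whose groups did not overlap, against the same 7.89% of all genes. Its difference was -0.14 without control array 1. With 1 array left out, ID1 ran from -0.28 without control array 2 to -0.06 without treated array 3. It was 0.01 with control array 1 and treated array 3 both left out. EZH2, the polycomb methyltransferase that silences the locus, differed by -0.01.

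**Figure D5:**
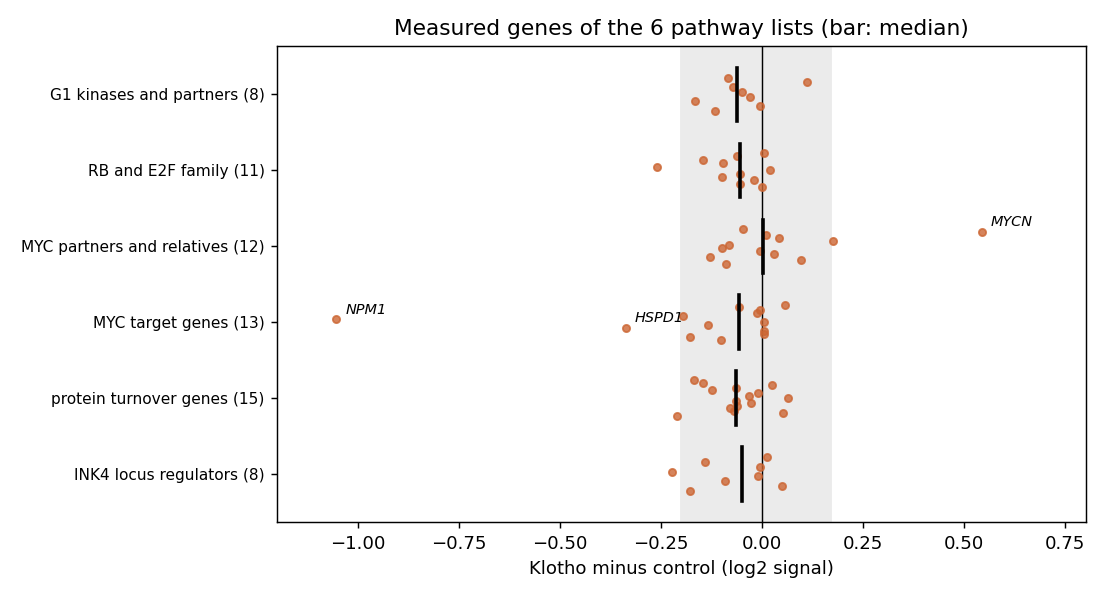
Difference between treated and control arrays (horizontal axis, log2 signal) of the measured genes in 6 pathway lists (rows, number of genes in brackets), 1 point a gene, with the list median as a black bar. The grey band spans the 5th to the 95th percentile of all genes (-0.20 to 0.17); the genes named are the 3 with an unadjusted p under 0.05 in limma, and 0 of the 67 genes passed the adjusted threshold.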

How the data were processed

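Total RNA of 6 MO3.13 samples was amplified and hybridised to arrays. The authors deposited log2 values for each probe set; RMA is named, with no version, in the submitters' processing notes. The software and filters used were not given in the sources used here. Of 22011 probe sets, 14432 had 1 gene symbol, 2408 several and 5171 none; 14404 of those with 1 symbol matched RefSeq (GRCh38.p14) by Entrez number. A gene was represented by its own probe set with the highest mean. All probe sets were fitted together by lmFit and eBayes (limma 3.58.1, R 4.3.3; 2-sided), with Benjamini-Hochberg adjustment and a threshold of 0.05; the fit was tested on simulated data. The genes and lists were chosen with earlier results of these data known. All members are named, with the 2 genes of smallest p in each list and a fixed set of partners. For MYC and the member of widest range, the 3 nearest profiles are named. LDHA, FBL, POLR1B and CAD in the MYC target list, EZH2 and the second MYCN probe set were added after their values were seen. So were the values of the probe sets shared by CCND1 and LTO1. Arrays give no read depth, and their number limits precision. The 17 alternatives covered scaling, filters, variance models, array weights, the replicate block, probe set choice and left-out arrays. A planned list of pathway genes and its members are not reported here.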

Additional observations from a re-analysis of the deposited data

How the results depend on the processing

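No probe set, member or pathway gene passed the adjusted threshold under any of the 17 alternatives (0 in each; smallest adjusted p over all probe sets 0.0932, without control array 3), and with limma as deposited 703 probe sets had an unadjusted p under 0.05. Leaving out 1 array at a time, 2 to 5 members were higher and 4 to 7 lower, against 4 and 5 with all arrays. The count was 2 higher without control array 2, control array 3 or treated array 1. The signs that turned were those of MYC, CCND1, CDKN2A and CDKN2B, all at an unadjusted p above 0.05, and the cause was not tested. As deposited the median difference over all genes was -0.03, and it was 0.02 with median centring, 0.01 with quantile normalization and 0.00 with cyclic loess. With the replicate number as a block, CDKN1B had an unadjusted p of 0.0558 at the same difference, and 0 probe sets passed. Same-numbered arrays did not deviate together (r of -0.18, 0.06 and -0.14 over probe sets), so the numbers are not taken as pairs. Without array 1 or array 3 of the controls, or array 1 or 2 of the treated cells, the unadjusted p of CDKN1B was 0.0589, 0.0824, 0.0754 and 0.0887. At 3 arrays a group the smallest standard error among the 9 genes was 0.08 and the largest 0.11 on the log2 scale.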
